A study of Mus musculus with 32 samples.

Results

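The 33 genes described here encode the enzymes of fatty acid oxidation, the carriers that bring fatty acids to it, and the regulators and best known target genes of the PPAR family of lipid-sensing receptors. They were listed by gene symbol, and all 33 were found among the 15780 genes with 1 name on the arrays. They fall into 17 enzymes of the mitochondrial core, 9 genes that respond to fasting in other tissues, 5 peroxisomal genes and 2 regulators.

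Fatty acids enter mitochondria as carnitine esters and are shortened there in repeated rounds of dehydrogenation, hydration, dehydrogenation and thiolysis, with the electrons passed to the respiratory chain. Peroxisomes shorten very long chains, and enzymes of the endoplasmic reticulum oxidize the far end of the chain. The proximal tubule of the kidney relies on fatty acids as fuel, and PPAR alpha (Ppara), with its coactivator PGC-1 alpha (Ppargc1a), drives many of these genes when fatty acids rise, as in fasting.

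Expression was measured on Affymetrix arrays in 32 whole-kidney RNA samples from lupus-prone mouse strains. Of these, 26 were from NZB/W mice. Untreated NZB/W mice without proteinuria were sampled at 30 weeks (7 kidneys). Triple therapy with cyclophosphamide, CTLA4Ig and anti-CD154 had put other NZB/W mice into early remission (8 kidneys) or late remission (6 kidneys), and an adenovirus encoding TACI-Ig, given with CTLA4Ig, had put 5 into late remission. A second strain, NZM2410, was sampled in remission that followed an adenovirus encoding BAFF-R-Ig (6 kidneys). The labels give no age for the remission groups, and kidneys with active nephritis or from young mice were not analysed here. A letter code occurs on both a 30-week and an early-remission sample and may mark the same mouse.

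Values are log2 expression. Tubular markers were bright in every kidney (Slc34a1 from 12.1 to 13.5, Umod from 13.3 to 14.0, Aqp2 from 9.46 to 11.4), while markers of neighbouring tissue varied. Adipoq, an adipocyte hormone, ranged from 3.71 to 8.92 in NZM2410 kidneys and from 6.12 to 11.03 in NZB/W kidneys, and Cyp11b1, an adrenal enzyme, from 4.66 to 9.77 over the NZB/W kidneys. Fewer cells of a type and less RNA per cell cannot be told apart in such samples. Array SDs were wider in NZM2410 (2.11 to 2.17) than in NZB/W kidneys (1.90 to 2.03). In late remission after triple therapy, group means nearly equalled the pooled mean of 12 other kidneys, those at 30 weeks and after TACI-Ig. The largest departure was 0.0101 among the members and 0.0255 among all 15780 genes. The 3 comparisons with that group are therefore fixed in large part by the other kidneys.

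A score was set for each kidney as the mean, over the members, of the log2 value minus the gene's mean of all 32 kidneys. The group mean was 0.01 ± 0.14 at 30 weeks (SD, n = 7), 0.03 ± 0.26 in early remission (n = 8), -0.16 ± 0.14 after TACI-Ig (n = 5), -0.06 ± 0.14 in late remission after triple therapy (n = 6) and 0.14 ± 0.16 in NZM2410 remission (n = 6). The groups overlapped, and single kidneys covered a wider range than the group means. The highest of all was early-remission replicate 2 at 0.65, followed by NZM2410 replicate 2 at 0.30. The lowest were TACI-Ig replicates 3 and 1, both at -0.24, followed by early-remission replicate 8 at -0.23.

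**Figure D1:**
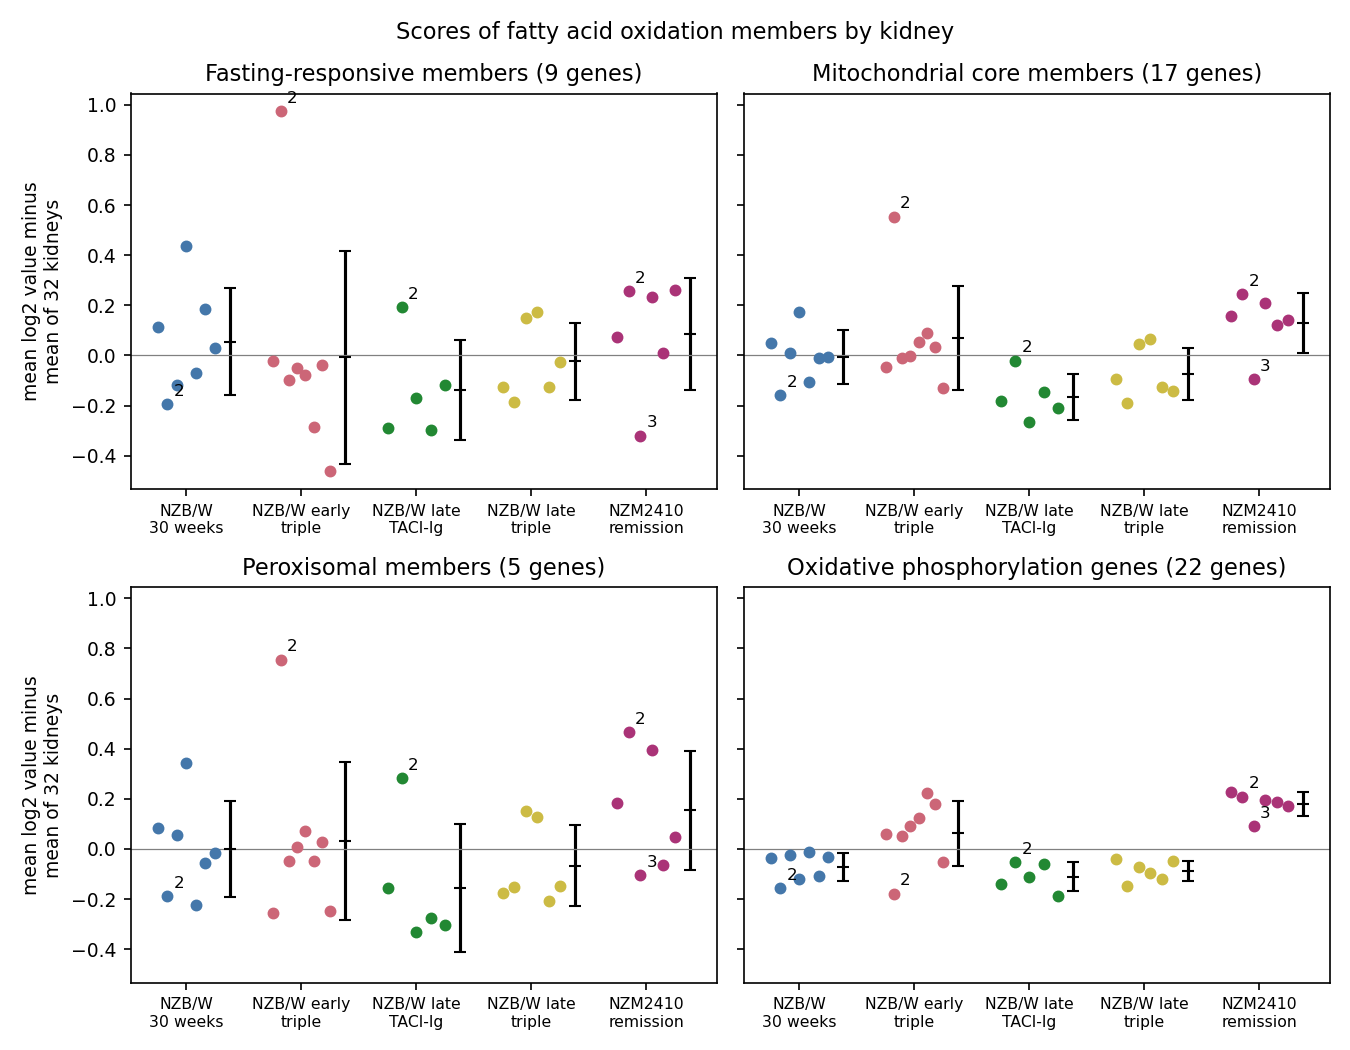
Scores of the fasting-responsive, mitochondrial core and peroxisomal members and of 22 oxidative phosphorylation genes, 1 point per kidney (y axis, log2 scale), with the group mean and SD as black bars. Replicate 2 of the NZB/W groups and replicates 2 and 3 of NZM2410 are numbered, and early-remission replicate 2 is the highest kidney in the first 3 panels (0.97, 0.55 and 0.76) and the lowest of its own group in the last (-0.18).

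Early-remission kidneys were set against the 30-week kidneys. Without kidneys in active nephritis, this comparison cannot show whether levels had fallen and returned. None of the 33 members was called against the 30-week kidneys (limma, adjusted p under 0.05), where 0% of all genes were called. At an unadjusted p under 0.05, 3 of the 33 members were higher and 0 lower, a share near the 8.78% of all genes called in either direction. These were Acads, the short-chain acyl-CoA dehydrogenase (log2 difference 0.22, SE 0.07), Echs1, the mitochondrial enoyl-CoA hydratase (0.18, SE 0.09), and Etfb, a subunit of the flavoprotein that takes up electrons from the dehydrogenases (0.16, SE 0.07). The limma adjusted p-values were 0.357, 0.569 and 0.569.

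The median member difference between early remission and 30 weeks was 0.06, against 0.02 over all genes, with 23 of 33 members above 0. It was -0.06 with 12 members above 0 when early-remission replicate 2 was left out. Pdk4, a kinase that limits the oxidation of pyruvate in favour of fatty acids, had the lowest difference of the members at -0.67. It varied widely in both groups. It ranged from 8.42 to 9.87 at 30 weeks (median 9.11) and from 7.31 to 10.3 in early remission (median 8.36). The kidney at 10.3 was replicate 2.

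Early-remission replicate 2 held 27 of the 33 members at the highest value of its 8 kidneys, while 21.1% of all genes were highest there. In 24 members it was the highest of all 26 NZB/W kidneys (8.37% of all genes), and 12 members were over 2-fold above the mean of the other 7 (0.691% of all genes). This kidney was singled out for its values, so these shares are a description and carry no test.

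The fasting-responsive genes differed most in that kidney. Cyp4a14, an omega-hydroxylase of the endoplasmic reticulum, was at 13.7 there and between 10.1 and 11.9 in the other 7 kidneys, 4.71-fold above their mean. Its neighbour Cyp4a10 was at 13.9 against 12.2 to 12.8 (2.42-fold), and Pdk4 was 4.28-fold above the mean of the others. Both Cyp4a genes belong to a family of near-identical copies, whose probe sets may share signal. Acot1, a cytosolic thioesterase that frees fatty acids from coenzyme A, was at 10.8 against 9.04 to 9.66 (2.79-fold), whereas its mitochondrial neighbour Acot2, whose sequence is very close, was 1.34-fold higher. Of the carnitine shuttle, the carrier Slc25a20 stood at 10.63 against 9.005 to 9.604 (2.31-fold), while the entry enzyme Cpt1a (1.56-fold) and the carnitine acetyltransferase Crat (1.21-fold) were above the other kidneys by less. The third omega-hydroxylase, Cyp4b1, was not the highest there at 13.0, since replicate 8 reached 13.3.

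Within the mitochondrial core the enzymes that handle unsaturated chains stood furthest out. Decr1, the mitochondrial dienoyl-CoA reductase, was at 11.6 in replicate 2 and between 10.5 and 10.6 in the other 7 kidneys. Eci1 and Eci2, both enoyl-CoA isomerases that move double bonds, were at 11.8 against 10.5 to 10.7 and at 11.2 against 9.91 to 10.1. The thiolase Acaa2 was at 11.96 against 10.6 to 11.1 and the inner-membrane transferase Cpt2 at 11.8 against 10.6 to 10.9. The other 7 kidneys lay close together in these genes, and replicate 2 lay above all of them.

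The dehydrogenases and the trifunctional protein stood out less in replicate 2. Acadl, the long-chain dehydrogenase, was 1.60-fold above the mean of the others, the trifunctional subunits Hadha and Hadhb 1.59-fold and 1.26-fold, the very-long-chain dehydrogenase Acadvl 1.47-fold, Acad11 1.37-fold and Acads 1.28-fold. The electron carriers Etfdh and Etfb were both 1.31-fold higher. In 4 core enzymes replicate 2 lay within the range of the others, namely the medium-chain dehydrogenase Acadm (12.8 in a range of 12.4 to 13.1), Echs1 (11.7), the flavoprotein subunit Etfa (11.6) and the hydroxyacyl dehydrogenase Hadh (12.8).

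In the peroxisome all 5 members were highest in replicate 2. Acaa1b, a thiolase, was at 13.2 against 11.6 to 12.4, the bifunctional enzyme Ehhadh at 13.1 against 11.9 to 12.3, and the dienoyl-CoA reductase Decr2 at 10.1 against 8.79 to 9.22. Hsd17b4, the other bifunctional enzyme, was 1.44-fold and Pex11a, which takes part in peroxisome division, 1.38-fold above the mean of the others. Of the regulators, Ppara was also highest there (10.8 against 9.51 to 10.3). Ppargc1a went the other way and was the lowest of the group at 8.45, where the others ranged from 8.82 to 10.7.

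**Figure D2:**
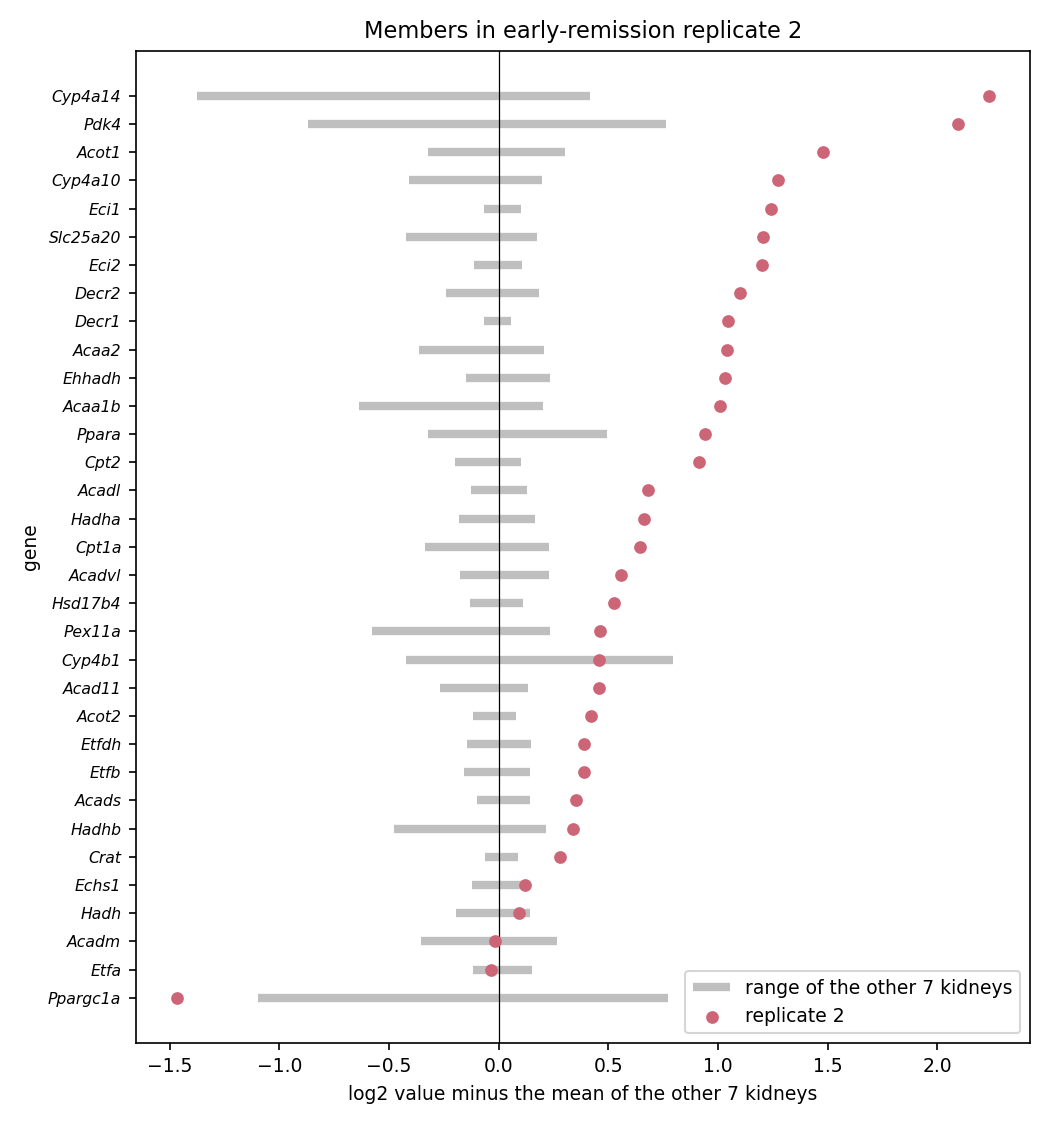
Each member in early-remission replicate 2 (points), as the log2 value minus the mean of the other 7 early-remission kidneys (x axis), with the range of those 7 as grey bars. In 27 of 33 members the point lies to the right of the bar, and Ppargc1a alone lies to its left.

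Of 106 further genes of fatty acid handling and PPAR control, 88 were measured. In early-remission replicate 2, 41 of these (46.6%) were the highest of the group, beside 21.1% of all genes. Another 15 (17.0%) were the lowest of the group there, near the 17.3% of all genes. The median log2 difference of the 88 genes from the mean of the other 7 kidneys was 0.19. A rise beyond 2-fold was seen in 8 genes (9.09%, beside 0.691% of all genes). A fall that far was seen in 1 gene, beside 79 of all 15780 genes. The genes named next were chosen after their values were seen. Fabp1, a fatty acid binding protein, was at 9.35 against 5.09 to 6.43 in the other 7 kidneys, 10.2-fold above their mean. Angptl4, a secreted inhibitor of lipoprotein lipase, was 5.54-fold, Vnn1, a pantetheinase, 4.95-fold, the peroxisomal thioesterase Acot3 2.88-fold and the lipid droplet proteins Plin5 and Plin2 2.33-fold and 2.01-fold higher. Cd36, a fatty acid translocase, was 1.04-fold higher and lay within the range of the others.

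Respiratory chain genes did not follow the members in that kidney. Of 22 measured genes of oxidative phosphorylation, 0 were highest and 16 were lowest in replicate 2 (17.3% of all genes were lowest there), and their score was -0.18 against -0.05 to 0.22. Of 19 proximal tubule genes, 4 were highest and 11 lowest. Immediate early genes were highest in 10 of 11 cases, with a score of 0.89 against -0.70 to 0.34, clock genes in 10 of 14 (0.53 against -0.13 to 0.24), and genes induced by glucocorticoids or fasting in 10 of 16 (0.46 against -0.28 to 0.04). The adrenal score of 2.21 lay at the top of a range from -1.86 to 2.19, the white fat score of 0.23 within -0.04 to 0.85 and the brown fat score of 0.30 within -0.19 to 0.58. The part of any of these in the result was not tested.

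**Figure D3:**
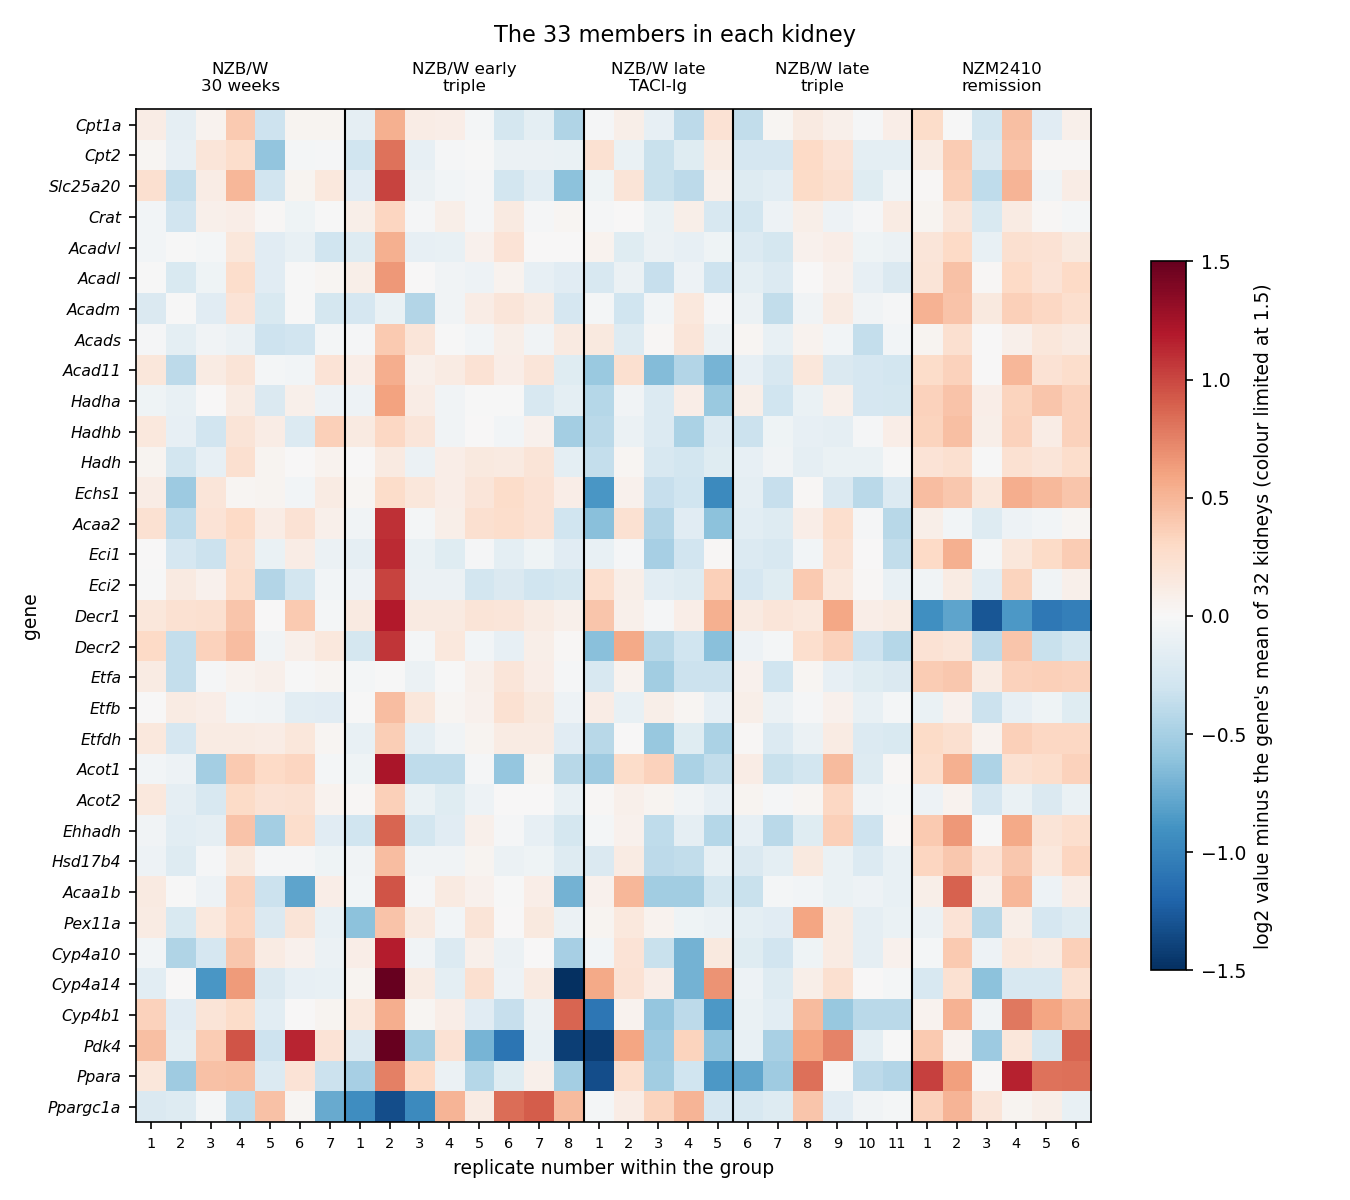
Log2 value of each member (y axis) in each kidney (x axis, by replicate number) minus the gene's mean of all 32 kidneys, with red above and blue below it and the colour limited at 1.5. Early-remission replicate 2 is red in most members, Decr1 is blue in all 6 NZM2410 kidneys, and Echs1 and Ppara are blue in TACI-Ig replicates 1 and 5.

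In late remission after TACI-Ig, 0 members were called against the 30-week kidneys, and 0% of all genes. At an unadjusted p under 0.05, 11 members were lower and 0 higher, beside 20.3% of all genes in either direction. The median member difference was -0.14, with 7 of 33 above 0, against 0.04 over all genes. The 11 were Acadl, Acad11, Hadha's partner Hadhb, Hadh, Echs1, Acaa2, Etfa, Etfdh, Cyp4b1, Pdk4 and Ppara, and their differences ran from -0.19 (Acadl) to -0.71 (Pdk4), all with limma adjusted p-values of 0.203 or above.

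The TACI-Ig kidneys were not alike. Acad11, a dehydrogenase of long and very long chains, was at 10.7, 11.5, 10.6, 10.8 and 10.5 in replicates 1 to 5, where the 30-week kidneys ranged from 10.8 to 11.4 with a median of 11.3. Decr2 was at 8.43, 9.62, 8.65, 8.76 and 8.43, against 8.70 to 9.53 at 30 weeks with a median of 9.22. Echs1 was at 10.6, 11.5, 11.1, 11.2 and 10.5, against 10.9 to 11.6 with a median of 11.5. In all 3 genes replicate 2 was the highest TACI-Ig kidney, within the 30-week range for Echs1 and above it for Acad11 (11.46 against at most 11.42) and Decr2.

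The same kidney was highest for Ppara (8.70, 10.3, 9.50, 9.72 and 9.16 in replicates 1 to 5, against 9.50 to 10.5 at 30 weeks). It was highest in 18 of 33 members (20.8% of all genes), among them all 5 peroxisomal genes. It was lowest in Acadvl, Acadm and Acads, so that these acyl-CoA dehydrogenases went against the others.

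Left out of the test, TACI-Ig replicate 2 changed the calls. This kidney was singled out for its values in the members, so the p-values without it are a description of how the result depends on it. With the remaining 4 kidneys against 7, limma called 8 members lower and 0 higher, where 8.3% of all genes were called in either direction. They were Cyp4b1 (log2 difference -0.80, adjusted p = 0.0235), Ppara (-0.78, adjusted p = 0.0452), Decr2 (-0.62, adjusted p = 0.0321), Acad11 (-0.62, adjusted p = 0.0235), Echs1 (-0.60, adjusted p = 0.0391), Acaa2 (-0.57, adjusted p = 0.0321), Etfdh (-0.48, adjusted p = 0.0243) and Etfa (-0.34, adjusted p = 0.0434). Leaving out any other kidney of either group gave 0 member calls.

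Markers of other cells moved with these values. Macrophage genes were lowest in TACI-Ig replicate 2 in 9 of 10 cases, with a score of -0.85 against -0.52 to 1.20 in the other 4 kidneys, and proximal tubule genes were highest in 12 of 19, with a score of 0.11 against -0.51 to -0.07. White fat scores ranged from -1.01 to 0.70 within the group, with replicate 2 the highest. Adrenal scores were -1.53 to -1.30 after TACI-Ig and -1.48 to 2.69 at 30 weeks. Against the 30-week kidneys, 7 of 19 proximal tubule genes were lower and 2 higher at an unadjusted p under 0.05. The part of any of these in the member values was not tested.

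Among the untreated 30-week kidneys the members also separated single animals. Replicate 4 was highest in 23 of 33 members (11.6% of all genes) and in all 5 peroxisomal genes, with a score of 0.26 and a fasting-responsive score of 0.44. Replicate 2 was lowest in 15 of 33 (25.7% of all genes), with a score of -0.19. There Echs1 was at 10.9 against 11.4 to 11.6 in the other 6 kidneys, Acaa2 at 10.5 against 10.9 to 11.2 and Acad11 at 10.8 against 11.2 to 11.4. Etfa and Etfdh, the electron carriers, were at 11.2 against 11.6 to 11.7 and at 10.69 against 10.97 to 11.12. In this kidney all 10 macrophage genes were the highest of the group (score 1.46 against -0.49 to 0.25), and 13 of 19 proximal tubule genes were the lowest (score -0.43 against 0.02 to 0.17). Their part in the low member values was not tested.

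In NZM2410 remission replicate 3 was the lowest of 6 kidneys in 30 of 33 members, including all 17 of the mitochondrial core and all 9 fasting-responsive genes (24.7% of all genes were lowest there). Its core score was -0.10 against 0.12 to 0.25. All 10 macrophage genes were the highest of the group in that kidney (score 0.99 against -0.87 to 0.14), 20 of 22 oxidative phosphorylation genes were the lowest and 14 of 19 proximal tubule genes were the lowest. The part of these in the member values was not tested.

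**Figure D4:**
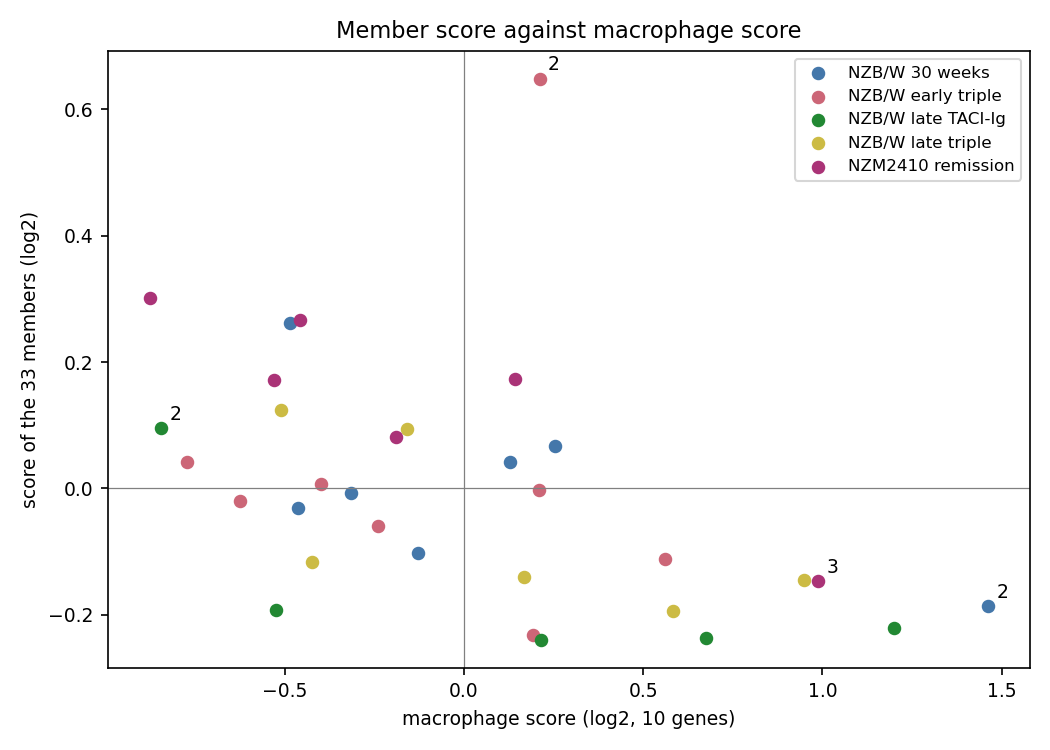
Score of the 33 members (y axis) against the score of 10 macrophage genes (x axis), both on the log2 scale, 1 point per kidney and coloured by group. The numbered points are 30-week replicate 2 (-0.19 at 1.46), NZM2410 replicate 3 (-0.15 at 0.99), TACI-Ig replicate 2 (0.09 at -0.85) and early-remission replicate 2, which lies apart from the rest at 0.65.

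Across the kidneys, with each group's mean removed, the member score and the macrophage score had r = -0.44 over 32 kidneys and r = -0.71 over the 31 without early-remission replicate 2. The values with the proximal tubule score were 0.22 and 0.58, and with the oxidative phosphorylation score -0.18 and 0.45. With the clock genes they were 0.57 and 0.44, and with the glucocorticoid and fasting genes 0.55 and 0.41. The sign of the relation with the respiratory chain therefore differed with and without that kidney. These are descriptions over kidneys that share arrays, normalization and tissue makeup. Among the members, the fasting-responsive and mitochondrial core scores had r = 0.90, or 0.79 without that kidney.

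Within the groups, most members correlated with the mean of the other 32. The correlation had a median of 0.70, and of 0.57 without early-remission replicate 2. It exceeded 0.5 in 25 and in 21 of the 33 members. No such value was computed for sets of other genes, so this cannot be called particular to the members. The carrier Slc25a20 was closest to the rest (r = 0.92, or 0.85 without that kidney), followed by Acadl (0.89 and 0.78) and Hsd17b4 (0.86 and 0.76). Acadm (0.23 and 0.33) and Acads (0.34 and 0.03) were less close, and so was Cyp4b1 (0.35 and 0.27). Ppargc1a did not vary with the genes it is known to coactivate (r = -0.36, or 0.00 without that kidney), while Ppara had 0.73 and 0.71.

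The genes outside the members whose pattern was most like the fasting-responsive score, over 32 kidneys with group means removed, were Cyp4a31, another omega-hydroxylase whose probes may share signal with Cyp4a10 (r = 0.89), Hsdl2, a peroxisomal dehydrogenase-like protein (0.89), the potassium channel Kcnj16 (0.82), the helicase Dhx40 (0.81) and the neonatal Fc receptor Fcgrt (0.81). Without early-remission replicate 2 the values were 0.80, 0.79, 0.68, 0.76 and 0.63.

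PPAR binds with its partner RXR to a direct repeat of AGGTCA with 1 base between the copies. The promoters were searched for this repeat. RefSeq promoters of build GRCm38.p6, from 250 bases before to 50 after the start, were at hand for 27 of the 33 members, those of Hsd17b4, Decr1, Cyp4a10, Cyp4a14, Crat and Acaa2 not being analysed here. The exact repeat was in 0 of 27, on either strand, and in 0.0481% of 27025 genes. A looser form, AGGNCA in both copies, was in 0 of 27 and in 0.451% of all genes. A single AGGTCA was in 4 of 27 members and in 18.1% of all genes. The 4 stretches are shown with AGGTCA, or its reverse complement TGACCT, in capitals, read 5′ to 3′ on the strand of the gene.
Echs1, chr7:140116487-140116516, minus strand: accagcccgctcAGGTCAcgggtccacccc
Acadvl, chr11:70015498-70015527, minus strand: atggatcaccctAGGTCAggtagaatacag
Cpt1a, chr19:3323195-3323224, plus strand: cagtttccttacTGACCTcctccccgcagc
Acadm, chr3:153944875-153944893, minus strand: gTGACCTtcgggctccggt
The first letter of the capitals lies 83 bases before the start in Echs1, 87 in Acadvl, 94 in Cpt1a and 249 in Acadm, counted from the start that the promoter table uses. That start is the outermost end of the gene for 22 of the 27 members, but lies 975 bases inside the gene span for Cpt1a and also inside it for Ppargc1a, Eci2, Ppara and Decr2. A missing match says only that these letters are not in this window.

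In late remission after triple therapy, 1 member was called against early remission after the same therapy, where limma called 0.0697% of all genes lower. The late group's member means lay within 0.0101 of the pooled mean of the untreated and TACI-Ig kidneys. This comparison therefore cannot separate a change between remission stages from a difference between early remission and those other kidneys. Echs1 was lower by a log2 difference of -0.38 (SE 0.07, adjusted p = 0.0454). It ranged from 11.49 to 11.73 in early remission (median 11.6) and from 11.06 to 11.47 in late remission (median 11.2). The lowest early and the highest late kidney were thus close together. The call held when early-remission replicate 1, 2 or 8 or late-remission replicate 8 was left out and was lost without any other kidney of these groups, with differences from -0.43 to -0.34. It was also lost after renewed quantile normalization (-0.26, limma adjusted p = 0.449) and with equal SD on each array (-0.36, limma adjusted p = 0.0619). A joint fit of all groups, the replicate number as a block and the study's stricter filter lost it as well. At an unadjusted p under 0.05, 4 members were lower (3.81% of all genes) and 0 higher (1.5% of all genes), the others being Acad11 (-0.30), Etfa (-0.15) and Hadh (-0.15). The median member difference was -0.12, against -0.01 over all genes, and turned to 0.0914 with the sample-name letters as a covariate. That fit rests on early-remission replicate 8, the only early kidney that shares a letter with the late kidneys, so it cannot separate letters from group.

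Against the 30-week and the TACI-Ig kidneys, late remission after triple therapy had 0 member calls, where limma called 0% and 0.076% of all genes. At an unadjusted p under 0.05, 0 members passed in either comparison, where 0.292% and 0.539% of all genes did. The median member differences were -0.06 and 0.08. These outcomes were fixed in large part in advance, since the group's means nearly equalled the pooled mean of those same 30-week and TACI-Ig kidneys. They do not show that the groups are alike. Within the group, replicate 8 had the highest regulator score (0.62 against -0.51 to -0.09), with Ppara at 10.9 and Ppargc1a at 10.2, and 15 of 16 glucocorticoid and fasting genes were the highest of the group there. Its member score was 0.12, that of replicate 9 was 0.09, and the other 4 ranged from -0.19 to -0.12.

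The last comparison sets NZM2410 remission against NZB/W late remission after TACI-Ig, where strain, treatment and stage cannot be told apart. As deposited, limma called 15 members higher in NZM2410 kidneys (28.6% of all genes) and 1 lower (30.9% of all genes). All NZM2410 kidneys lay above all TACI-Ig kidneys in 7 members (16.1% of all genes), namely Acadl, Hadha, Hadhb, Echs1, Etfa, Etfdh and Hsd17b4, and below them in 1 (22.4% of all genes), Decr1. The median member difference was 0.35, against 0.00 over all genes.

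Most of these calls did not hold under every scaling tried. With the arrays quantile normalized again, 10 members were called higher and 4 lower, and with equal median and SD on each array 2 were higher and 8 lower. The median member difference fell to 0.08 and to -0.10, where the median of all genes was 0.01 and -0.10. Of the 33 members, 25 were among the 1578 brightest of the genes tested, whose own median difference was 0.21 as deposited and 0.01 and -0.19 under these scalings. The median of the members therefore had no direction that held under every scaling.

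As deposited and under every other scaling tried, median centring alone included, 3 members had a call in the same direction, namely Ppara, Echs1 and Decr1. Ppara was at 8.70, 10.3, 9.50, 9.72 and 9.16 in the TACI-Ig kidneys and ranged from 10.05 to 11.18 in the NZM2410 kidneys, with a median of 10.8. The difference was 1.29 (SE 0.25, limma adjusted p = 0.00072) as deposited, 1.13 after renewed quantile normalization and 0.95 with equal SD. Echs1 was lowest at 11.63 in the NZM2410 kidneys, with a median of 11.9, above the TACI-Ig values of 10.5 to 11.5 given before. Its difference was 0.90 (SE 0.16, limma adjusted p = 0.000333), 0.66 and 0.44.

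Decr1 was lower in NZM2410 kidneys. It was at 10.8, 10.5, 10.4, 10.5 and 10.9 after TACI-Ig and ranged from 9.12 to 9.61 in NZM2410 remission, with a median of 9.43. No NZM2410 kidney reached the lowest of the 26 NZB/W kidneys, which was at 10.4. The difference was -1.22 (SE 0.11, limma adjusted p = 2.97e-06) as deposited, -1.37 after renewed quantile normalization and -1.53 with equal SD. Its peroxisomal counterpart Decr2 differed by 0.25 and was not called, but without TACI-Ig replicate 2 it was called higher (0.46, limma adjusted p = 0.0247).

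Cyp4b1 (0.97, limma adjusted p = 0.000981), Acad11 (0.69), Etfa (0.60), Etfdh (0.58), Hadha (0.56), Hadhb (0.55), Hsd17b4 (0.50) and Acadl (0.45) were called higher as deposited and after renewed quantile normalization, but not with equal SD, where Acadl turned to -0.02. Ehhadh (0.52), Eci1 (0.45), Hadh (0.39), Acadm (0.38) and Acadvl (0.24) were called as deposited and under neither of these scalings in that direction. With equal SD, Ehhadh, Hadh and Acadm were at -0.01, -0.17 and -0.22, and Acadvl was called lower at -0.24.

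The members not called as deposited were Cpt1a, Cpt2, Slc25a20, Crat, Acads, Acaa2, Eci2, Decr2, Etfb, Acot1, Acot2, Acaa1b, Pex11a, Cyp4a10, Cyp4a14, Pdk4 and Ppargc1a, with differences from -0.32 (Cyp4a14) to 0.44 (Pdk4). Besides Decr2, leaving out TACI-Ig replicate 2 added calls for Acaa2 (0.28 to 0.42), Acaa1b (0.41 to 0.57) and Cyp4a10 (0.30 to 0.39), leaving out TACI-Ig replicate 4 added Cyp4a14 as lower (-0.32 to -0.54), and leaving out NZM2410 replicate 3 added Acot1 (0.35 to 0.48). As deposited, 1 of the 9 fasting-responsive genes was called, Cyp4b1, which was higher. Of the 17 in the mitochondrial core, 11 were called higher and 1 lower, beside 28.6% and 30.9% of all genes. Of these core calls, only those of Echs1 and Decr1 held under every scaling. Etfb (-0.12 as deposited) was called lower after renewed quantile normalization (-0.40) and with equal SD (-0.63).

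**Figure D5:**
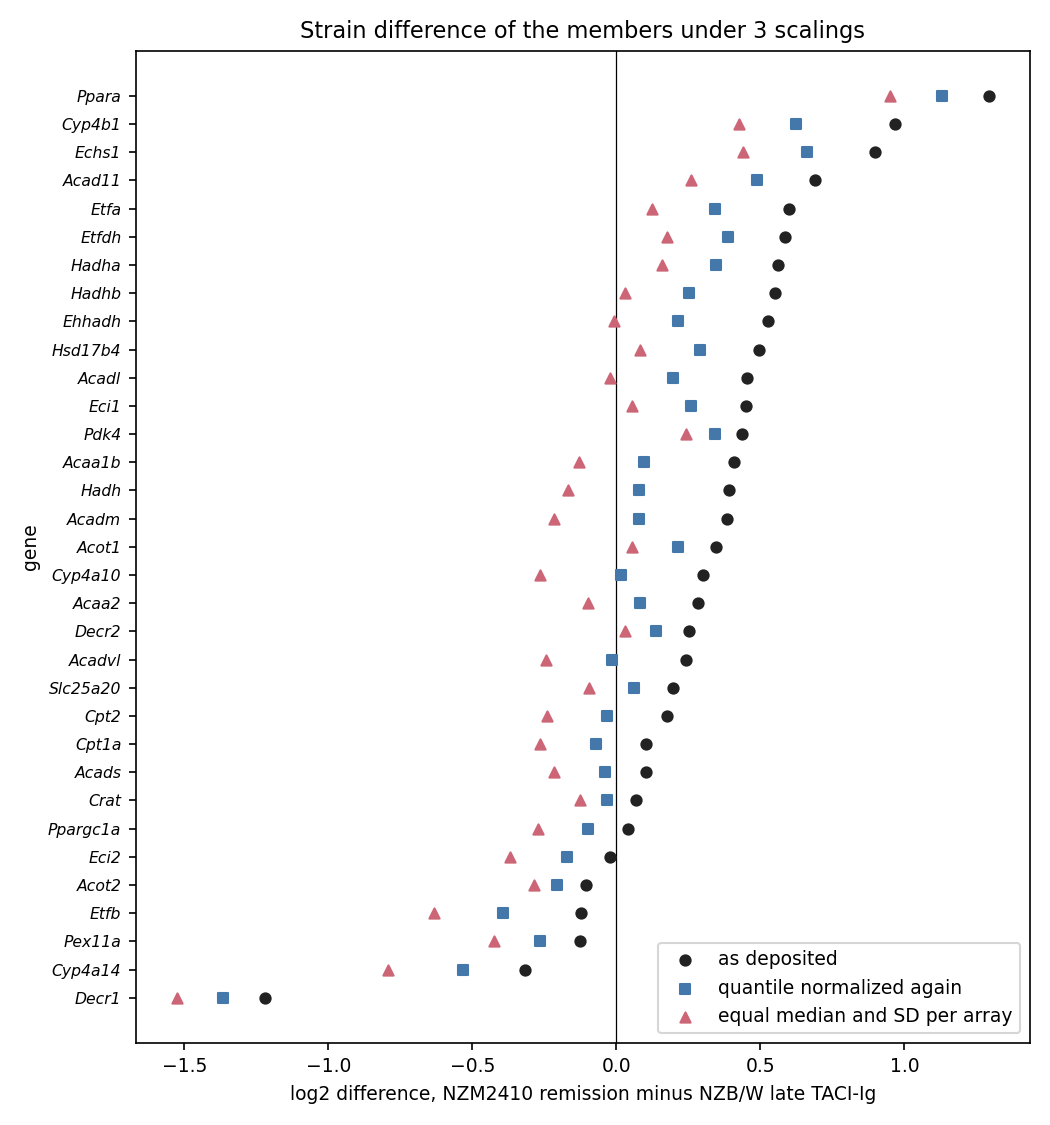
Log2 difference of each member between NZM2410 remission and NZB/W late remission after TACI-Ig (x axis), as deposited (circles), after renewed quantile normalization (squares) and with equal median and SD on each array (triangles). Most members cross or approach 0 as the scaling changes, whereas Ppara stays between 0.95 and 1.29 and Decr1 between -1.53 and -1.22.

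Of the 88 related genes, limma called 29 higher and 12 lower in NZM2410 kidneys, beside 28.6% and 30.9% of all genes, with a median of 0.17 as deposited, 0.02 and -0.10 under the scalings. The largest called differences were those of Plin4, a lipid droplet protein (-1.38, limma adjusted p = 0.00146), Acsm3, a medium-chain acyl-CoA synthetase (-1.29), Cyp4a12a, an omega-hydroxylase (-1.10), Amacr, the racemase of branched chains (0.93), and Acox3, a peroxisomal acyl-CoA oxidase (0.88). All 5 kept their direction under these scalings, with Amacr at 0.55 and Acox3 at 0.76 with equal SD. Mean levels in NZM2410 and TACI-Ig kidneys were 6.36 and 7.74 for Plin4, 5.36 and 6.65 for Acsm3, and 5.84 and 6.94 for Cyp4a12a. Array medians in these groups ran from 7.07 to 7.17. Acsm3 and Cyp4a12a were thus below the median gene in both groups, while Amacr and Acox3 were above it. White fat scores were -1.92 to -0.39 in NZM2410 and -1.01 to 0.70 in TACI-Ig kidneys, and the part of fat tissue in the Plin4 value was not tested. Genes of oxidative phosphorylation, with 19 of 22 called higher as deposited, also depended on the scaling, with medians of 0.37, 0.05 and -0.20.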

How the data were processed

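The deposited values are log2 expression values made by the authors with RMA, with 1 probe set per Entrez gene, normalized and corrected for batch over all arrays at once according to the study's methods. The batches are not named, and no version is given in the sources used here. Of 16539 probe sets, 15780 had 1 gene name and were tested, and 64 array controls and 695 without a name were left out. The members and lists were chosen with earlier results of these data known.

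Groups came from the sample labels. Each of 6 comparisons was fitted on its own 2 groups with limma 3.58.1 in R 4.3.3 (lmFit, eBayes); p-values were adjusted by Benjamini and Hochberg's method across the 15780 genes and called under 0.05. The study used SAM, for which limma stands in here. Arrays have no read depth, and precision rests on how many there were. Where the labels do not name separate mice, p-values measure only the spread between samples, which may be technical. Scores and correlations were computed in Python 3.11.15 and carry no test. The fit was tested on simulated data.

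Named were all members, the 5 called related genes with the largest difference per comparison, and the 5 other genes most like the fasting-responsive score. Further related genes were named for early-remission replicate 2 after their values were seen. Alternatives were a joint fit, renewed quantile normalization, median centring with and without equal SD, array weights, an intensity trend, the replicate block, the sample-name letters, the study's filter (adjusted p of at most 0.001, fold of at least 1.4 or at most 0.7), the dimmest genes left out (10520 genes left) and each kidney left out.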

Additional observations from a re-analysis of the deposited data

Results flagged for a closer look

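For every member and score, the highest and the lowest kidney of each group were compared with the nearest of the others (Dixon's test at the 95% level). Of 190 such tests 43 found a kidney apart, 35 of them among 165 tests of members, where chance alone gives about 1 in 20 groups. Tests of members that vary together are not independent.

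Early-remission replicate 2 stood apart in 19 tests and was the highest in each. Its values were 11.8 for Cpt2, 10.6 for Slc25a20, 8.94 for Crat, 12.3 for Acadl, 11.4 for Hadha, 11.96 for Acaa2, 11.8 for Eci1, 11.2 for Eci2 and 11.6 for Decr1. They were 10.1 for Decr2, 10.8 for Acot1, 8.85 for Acot2, 13.1 for Ehhadh, 11.4 for Hsd17b4 and 13.9 for Cyp4a10. The scores were 0.65 over all members, 0.97 for the fasting-responsive, 0.55 for the mitochondrial core and 0.76 for the peroxisomal genes.

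The 30-week replicate 2 was low for Acad11 (10.8), Echs1 (10.9), Acaa2 (10.5), Etfa (11.2) and Etfdh (10.7). NZM2410 replicate 3 was low for Hadha (10.9), Hadh (12.6), Echs1 (11.6), Etfa (11.7), Acot1 (9.15) and the core score (-0.10). TACI-Ig replicate 2 was high for Acad11 (11.5), Decr2 (9.62), the score of all members (0.0949) and the peroxisomal score (0.28).

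In late remission after triple therapy, replicate 8 was high for Acad11 (11.4), Hsd17b4 (11.1), Ppargc1a (10.2) and the regulator score (0.62), replicate 9 for Decr1 (10.98) and Acot2 (8.80), and replicate 6 was low for Cpt1a (10.1) and Acaa1b (11.98). Early-remission replicate 8 was low for Hadhb (11.7).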

How the results depend on the processing

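Against the 30-week kidneys, 0 members were called in early remission under any alternative, and after TACI-Ig the count ranged from 0 to 8 as kidneys were left out, the 8 without TACI-Ig replicate 2, where all-gene calls went from 0 to 1309. Late against early remission after triple therapy had a single call (1 member, 11 genes in all). That comparison is fixed in large part by other kidneys. The count became 0 in the joint fit, after renewed quantile normalization, with equal SD and under the study's filter. It became 2 with array weights (65 genes in all) and ranged from 0 to 1 as kidneys were left out. The median member difference of that comparison was 0.0914 with the letters of the sample name as a covariate, against -0.12. That fit rests on the only early kidney that shares a letter with the late kidneys. The replicate block also lost this call (Echs1 at -0.35, 0 members). Over all genes, early remission against 30 weeks had 0 calls, 3 in the joint fit and 123 with array weights. Late against early remission had 1 in the joint fit and under the replicate block and 7 with an intensity trend. It had 0 under the other scalings that lost the call. Same-numbered kidneys had correlations of -0.71 to 0.34, so that the numbers do not pair them.

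For NZM2410 against TACI-Ig kidneys, 16 member calls became 10 with equal SD and 9 under the study's filter (9388 genes in all as deposited, 3153 under the filter and 5368 with the dimmest genes left out). The median was 0.083 after renewed quantile normalization and -0.10 with equal SD. Acadvl turned to -0.015 and -0.24 under these, and with equal SD Acadl turned to -0.0225, Acadm to -0.22, Hadh to -0.17 and Ehhadh to -0.0096. The cause was not tested. Over all comparisons and alternatives, 112 recomputed counts stayed on the same side or within 1.5 times, 18 were weaker and 2 stronger. Of the medians 111 stayed, 1 moved and 2 reversed, and of the values of single called members 292 stayed, 29 lost the call and 6 reversed. The authors' batch correction could not be undone.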
